A study of Rattus norvegicus with 6 samples.

Results

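The TAM receptors Axl, Mertk and Tyro3 and their ligands Gas6 and Pros1 were followed in single-cell transcriptomes of the rat hippocampus. The 5 genes were taken by symbol from the 30452 rows of the feature table, and all 5 were found once: Axl (ENSRNOG00000020716), Mertk (ENSRNOG00000017319), Tyro3 (ENSRNOG00000058586), Gas6 (ENSRNOG00000018233) and Pros1 (ENSRNOG00000048723). The labels describe 3 control male rats and 3 male rats whose whole brain had received 20 Gy 2 months before the hippocampus was taken; the labels name neither strain nor age, and do not say whether controls were sham-treated. Tissue was digested to a cell suspension, red cells were lysed, dead cells were removed with magnetic beads, and cells were captured on the Chromium 3′ v3 platform with no sort by cell type. The deposited matrix joins 6 libraries, numbered 1 to 6 by the ending of each cell barcode, and 0 of these numbers could be tied to a labelled rat. No comparison of irradiated with control rats was therefore made; values are given for the pooled cells and for each library by number.

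TAM receptors are receptor tyrosine kinases that recognise phosphatidylserine, the lipid exposed on dying cells, through a bridging ligand. Gas6 binds all of the TAM receptors, and protein S, encoded by Pros1, binds Mertk and Tyro3. Ligand binding starts engulfment and restrains inflammatory signalling; in the brain Mertk is known for uptake of cell debris and synapses by microglia and astrocytes, Axl for its induction in reactive myeloid cells, and Tyro3 for expression in neurons and myelinating cells.

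The start-site windows of Axl, Mertk and Pros1 are shown because Pros1 and Mertk were high, and Axl low, in microglia-like cells. Each runs from 250 bases before to 50 bases after the annotated start, 5′ to 3′ along the gene's strand, from RefSeq on GRCr8. The Axl window lies at chr1:90423960-90424259 on the minus strand, the Mertk window at chr3:136392324-136392623 on the plus strand and the Pros1 window at chr11:13677049-13677348 on the plus strand. Capitals mark GGGCGG, the GC box, on either strand.
Axl: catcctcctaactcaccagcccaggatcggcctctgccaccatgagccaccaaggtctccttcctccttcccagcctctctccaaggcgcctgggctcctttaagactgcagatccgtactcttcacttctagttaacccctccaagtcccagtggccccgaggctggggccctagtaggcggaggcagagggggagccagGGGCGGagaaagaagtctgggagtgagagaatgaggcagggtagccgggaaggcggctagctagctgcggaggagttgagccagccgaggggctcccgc
Mertk: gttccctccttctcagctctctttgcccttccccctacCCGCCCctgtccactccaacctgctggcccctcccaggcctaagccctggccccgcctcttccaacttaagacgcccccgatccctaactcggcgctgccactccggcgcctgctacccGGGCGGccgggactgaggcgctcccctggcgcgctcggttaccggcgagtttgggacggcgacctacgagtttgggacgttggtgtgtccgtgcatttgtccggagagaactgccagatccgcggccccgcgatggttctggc
Pros1: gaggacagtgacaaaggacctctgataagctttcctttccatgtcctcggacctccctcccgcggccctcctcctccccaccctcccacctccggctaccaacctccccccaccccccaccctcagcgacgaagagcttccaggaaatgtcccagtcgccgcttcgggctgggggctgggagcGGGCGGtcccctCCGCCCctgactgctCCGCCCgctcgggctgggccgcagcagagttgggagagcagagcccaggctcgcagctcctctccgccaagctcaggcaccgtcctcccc
The GC box occurred in all 5 members' windows, with 1 match in Axl, 2 in Mertk, 6 in Tyro3 (overlapping matches counted), 3 in Gas6 and 3 in Pros1, and 33.1% of the 33469 windows of all genes held it. It was picked for display after its matches had been seen, out of 11 motifs searched on both strands. Of these, the interferon-stimulated response element core, held by 3.92% of all windows, and the direct repeat of nuclear receptor sites with a spacer, held by 0.00598%, were in no member's window. The single nuclear receptor site AGGTCA, which overlaps that repeat, had 2 matches in Gas6 and was held by 16.2% of windows. The motif GAGGAA had 1 match in Axl and was held by 27.6%. The other 6 motifs were in no member's window: TGAGTCA was held by 4.63% of all windows, CACGTG by 6.42%, TGACGTCA by 1.83%, AGGAAGT by 8.41%, TATAAA by 14.2% and GATTA by 22.9%. The members' windows held from 63.0% (Axl) to 81.3% (Tyro3) G or C, against a median of 51.7% over all windows.

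After filtering, 44800 cells remained of 58078 barcodes, with a median of 4924.5 unique molecular identifiers (UMIs, one for each captured transcript); the libraries held 46853113 to 62094407 UMIs before filtering. Cells were grouped by clustering without the 5 members and named from marker genes, written as "X-like"; 8590 cells, 19.2%, were in clusters that took no name. Levels are CPM, the UMIs of a gene scaled to a fixed total of UMIs, over all cells of a group summed, with an exact 95% Poisson interval that covers counting error only and not the spread between rats. Microglia-like cells, with Tmem119 at 1081 CPM and P2ry12 at 823 CPM, numbered 21585, and astrocyte-like cells, with Aqp4 at 1763 CPM, 11842. Clusters 3 and 6, with 3858 and 3056 cells, are myeloid clusters led by Clec7a, Plau and Cxcl2. They met the marker rule for border macrophages, but that name was withheld, after the clusters had been seen, because Cd163 and F13a1 were each in under 1% of their cells. The 625 border macrophage-like cells kept their name by the same rule. Their Cd163 was at 452, 16.5, 37.0 and 9.86 CPM in libraries 3, 4, 5 and 6 (0 in cluster 3). In library 6 the 9 border macrophage markers summed to 736 CPM against 810 CPM in cluster 3. The name rests there on Cd163 and F13a1 more than on the whole list. Cd74, a gene of MHC class II presentation, was at 9730, 8042 and 11194 CPM in libraries 4, 5 and 6, against 499, 255 and 253 CPM in cluster 3. The name therefore does not set these cells apart from MHC class II-high macrophages. Clusters 3 and 6 came almost wholly from libraries 4, 5 and 6, and clusters 4, 7, 17 and 20 of the microglia-like cells almost wholly from library 3, so a cluster and a library cannot be told apart there. Pooled microglia-like cells come mostly from libraries 1, 2 and 3. In the gene-by-gene paragraphs, pooled ratios of the members therefore stand beside values of single libraries with at least 20 cells of both groups. Values of other pathway genes are mostly pooled, with values within libraries for some of them. Of the 16-base barcodes, 410 occurred in more than 1 library, 246 of them among kept cells. Mature neurons were not among the named classes. Free RNA was not subtracted, and lymphocytes, the 851 T or NK cell-like cells, served as a measure of this background, although a low true level there cannot be told apart from it.

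**Figure D1:**
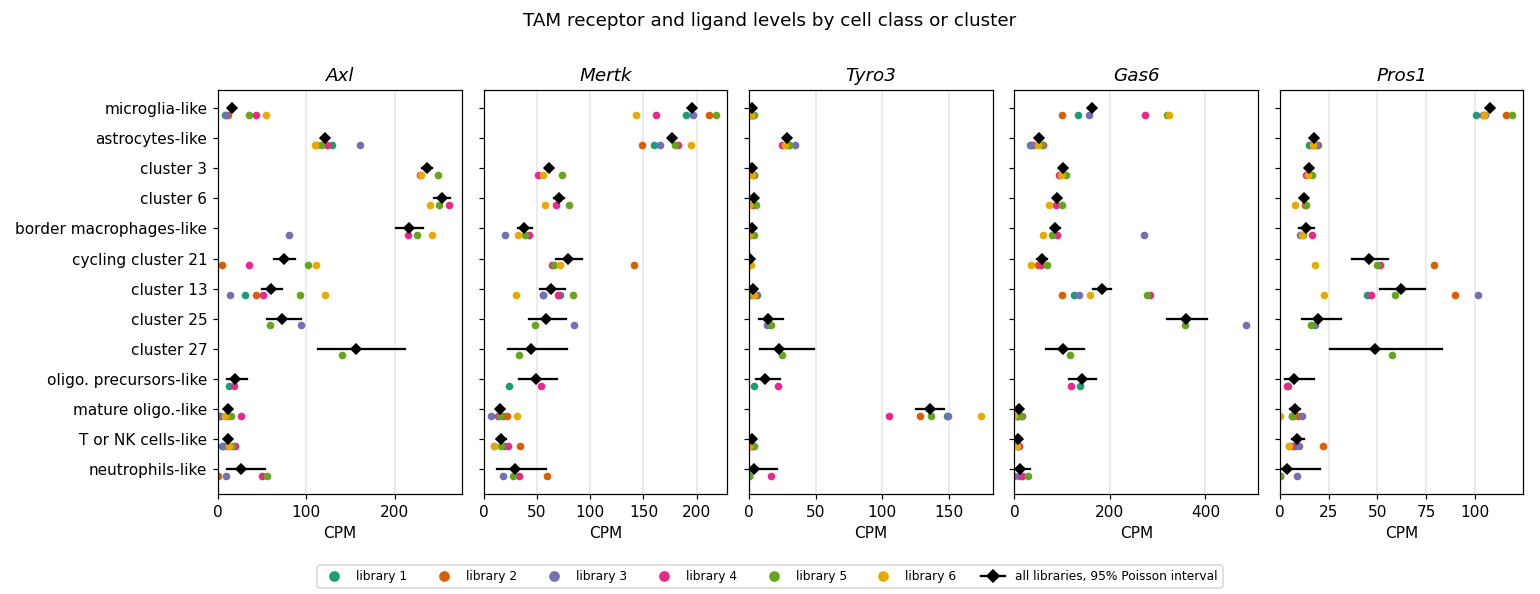
Level of each gene (horizontal axis, CPM) in 13 cell classes or clusters (vertical axis). Diamonds with bars are pooled cells with the 95% Poisson interval, and coloured points are single libraries with at least 20 cells of that group. Of pooled groups of at least 100 cells, Axl was highest in cluster 6, Pros1 in microglia-like cells, Mertk in microglia-like and astrocyte-like cells, whose order did not hold over libraries, Tyro3 in mature oligodendrocyte-like cells and Gas6 in cluster 25.

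Axl was high in clusters 3 and 6 and in border macrophage-like cells of libraries 4, 5 and 6. It was intermediate in astrocyte-like cells and low in microglia-like cells. Its level was 254 CPM (245 to 263) in cluster 6, 237 CPM in cluster 3, 216 CPM in the border macrophage-like population of 625 cells and 121 CPM (118 to 123) in astrocyte-like cells. The microglia-like level was 15.8 CPM (15.04 to 16.5), against 11.1 CPM (7.997 to 14.998) in T or NK cell-like cells. Of 21890 Axl UMIs, astrocyte-like cells held 43.0%, clusters 3 and 6 held 28.9% and 13.7%, and microglia-like cells, 48.2% of all cells, 8.36%. Border macrophage-like cells lay below cluster 3 in 2 of the 3 libraries compared and above it in 1, so these neighbours in the order were not parted. The 24 border macrophage-like cells of library 3, with border macrophage markers summed to 5108 CPM, had Axl at 80.4 CPM. Astrocyte-like cells of that library had 161 CPM.

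Axl was lower in microglia-like than in astrocyte-like cells in 6 of 6 libraries. From library 1 to 6 the microglia-like cells had 7.70, 11.1, 8.65, 42.9, 35.4 and 53.8 CPM and the astrocyte-like cells 129, 111, 161, 123, 116 and 110 CPM. The ranges did not overlap. Astrocyte-like cells stood 16.7-, 10.05-, 18.6-, 2.88-, 3.27- and 2.05-fold higher within libraries 1 to 6. The pooled ratio was 7.67 (7.29 to 8.07, counting error only), a log2 ratio of microglia-like to astrocyte-like cells of -2.94 that lay between -3.61 and -3.70 with doublets kept, with the members among the variable genes, with cells named by marker score or without cluster 5, one of the microglia-like clusters. In cluster 3 the level was 229, 249 and 230 CPM in libraries 4, 5 and 6, above both other populations in each of the 3. Within these libraries it was 5.35-, 7.04- and 4.27-fold above microglia-like cells, log2 ratios of 2.42, 2.81 and 2.10. The pooled log2 ratio was larger, at 3.91, and 4.51 to 4.66 with a mitochondrial limit of 10%, with doublets kept, with the members among the variable genes or without cluster 5. The background also differed between libraries: T or NK cell-like cells had 3.88, 9.86, 4.93, 19.2, 16.04 and 12.2 CPM, from 42 Axl UMIs in all. Like the microglia-like level, it was higher in libraries 4, 5 and 6 than in libraries 1, 2 and 3. The background was highest in library 4, and the microglia-like level in library 6. The summed 13 astrocyte markers, 0 of them absent from the pooled microglia-like cells, stood in microglia-like cells at 1244, 1353, 919, 2844, 2062 and 1965 CPM. Their part in the microglial values was not tested.

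The Axl level of microglia-like cells also depended on which clusters made up the class. Cluster 5, led by Mmp2, C1qb and Lyve1 and with Cdkn1a at 381 CPM, supplied 1416 of the 1624 microglia-like cells of library 4, 1093 of 1389 in library 5 and 501 of 526 in library 6. It had 42.9 CPM of Axl, and the other microglia-like cells had 9.37 CPM. Without cluster 5, libraries 1 to 5 had 7.50, 10.5, 8.66, 27.6 and 27.04 CPM, and the 25 remaining cells of library 6 had 110 CPM. These cells were above T or NK cell-like cells of the same library in 6 of 6 libraries, by 1.07- to 8.96-fold, and so was the whole microglia-like class, by 1.12- to 4.39-fold. Cluster 5 was above the other microglia-like cells in libraries 1, 2, 4 and 5 and below them in library 6. Cluster 5 lay close to the limit of the naming rule, with a marker score of 2.19 for microglia and 1.01 for border macrophages.

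Thinned to 2000 UMIs a cell, 2.42% of microglia-like cells had an Axl UMI (exact 95% binomial interval 2.22 to 2.64%), against 2.19% (1.28 to 3.49%) of T or NK cell-like cells. These pooled intervals overlapped, while the pooled levels in CPM did not; both classes are spread unequally over the libraries. From library 1 to 6 it was 1.49, 1.88, 1.31, 6.44, 7.08 and 8.19% in microglia-like cells, against 1.89, 0, 0.669, 5.71, 3.01 and 3.66% in lymphocytes, where 0 of 70 cells in library 2 allows up to 4.29% by the limit of 3 counts and 5.13% by the exact interval. The microglial interval lay within the lymphocyte one in libraries 1 to 4 but not in libraries 5 and 6, where it overlapped it. The shares were 21.6% in astrocyte-like cells, 35.3% in cluster 3 and 37.3% in cluster 6, with border macrophage-like cells at 35.1%. Unthinned, at median depths of 4836 and 4025 UMIs, the shares were 6.18% for microglia-like and 4.82% for T or NK cell-like cells.

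Mertk, the receptor of debris uptake, had like levels in microglia-like and astrocyte-like cells and was lower in clusters 3 and 6. It was at 195 CPM (193 to 198) in microglia-like cells, 177 CPM (174 to 180) in astrocyte-like cells, 70.8 CPM in cluster 6, 61.4 CPM in cluster 3 and 38.2 CPM in border macrophage-like cells, against 16.6 CPM in T or NK cell-like cells. Cluster 29, 62 cells with markers of both astrocytes and microglia, had 268 CPM. Its median was 8870 UMIs, against 4836 in microglia-like and 6017 in astrocyte-like cells. Whether its cells were doublets that the filter had left was not tested. From library 1 to 6, microglia-like cells had 190, 212, 197, 162, 218 and 143 CPM and astrocyte-like cells 160, 149, 165, 182, 179 and 194 CPM. Microglia-like cells were higher in 4 libraries and lower in libraries 4 and 6, so the order of these classes did not hold over the libraries. With a mitochondrial limit of 10% the pooled log2 ratio of microglia-like to astrocyte-like cells turned from 0.14 to -0.0067.

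In cluster 3 Mertk was at 50.7, 73.6 and 55.4 CPM in libraries 4, 5 and 6, below the microglia-like cells of the same library in 3 of 3. Pooled, microglia-like cells stood 3.18-fold higher (3.03 to 3.35). The difference was 3.20-, 2.96- and 2.58-fold within libraries 4, 5 and 6. Cluster 6 was also above microglia-like cells in Axl and below them in Mertk in 3 of 3 libraries. Clusters 3 and 6 were therefore high in Axl and low in Mertk relative to microglia-like cells, and astrocyte-like cells carried both. Among astrocyte-like clusters Mertk ran from 103 CPM in cluster 12, of which 1074 of 1119 cells came from library 4, to 273 CPM in cluster 11. Among microglia-like clusters it ran from 127 CPM in cluster 17 to 365 CPM in cluster 20, a cluster of 239 cells with a median of 832 UMIs. After thinning, 32.4% of microglia-like, 29.4% of astrocyte-like, 11.5% of cluster 3 cells and 3.48% of lymphocytes had a Mertk UMI; unthinned these were 59.1%, 56.0%, 31.8% and 6.35%.

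**Figure D2:**
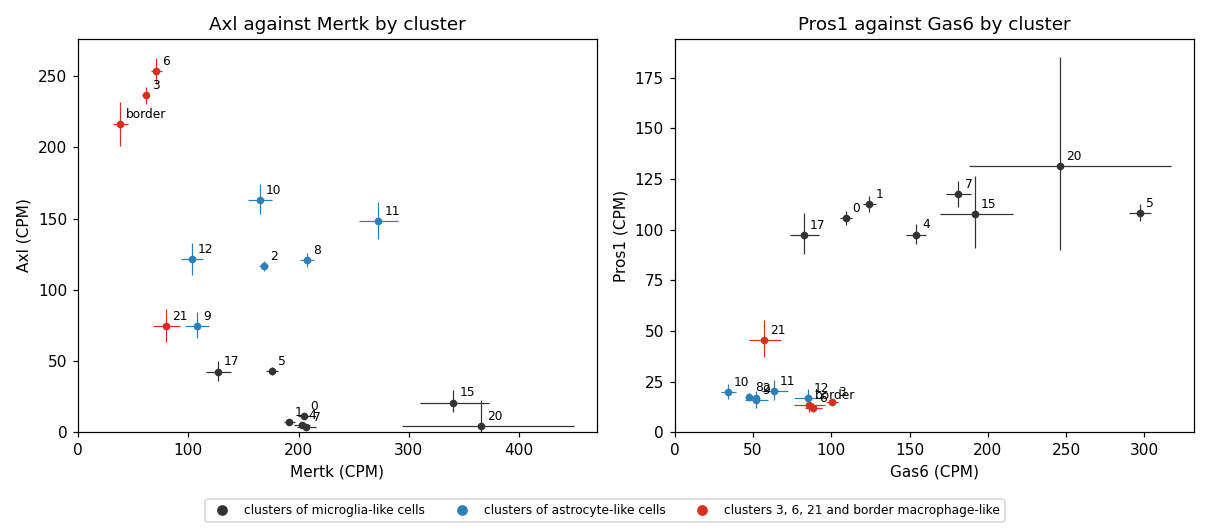
Left, Axl against Mertk (CPM), and right, Pros1 against Gas6 (CPM), in single clusters with 95% Poisson bars; numbers are clusters. Clusters 3 and 6 lie at high Axl and low Mertk, and the microglia-like clusters at low Axl and at Pros1 levels of 97.5 CPM or more.

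Tyro3 was a gene of mature oligodendrocyte-like cells and, at a lower level, of astrocyte-like cells. It was at 136 CPM (126 to 147) in the 871 mature oligodendrocyte-like cells and at 64.5 CPM (31 UMIs) in cluster 31, 51 cells with 7 of 7 markers of newly formed oligodendrocytes. Astrocyte-like cells had 28.1 CPM (26.96 to 29.3), and microglia-like cells 1.90 CPM, against 1.85 CPM in T or NK cell-like cells. From library 1 to 6, mature oligodendrocyte-like cells had 148, 128, 149, 105, 137 and 174 CPM, the last from 25 cells, and astrocyte-like cells 27.9, 30.3, 34.7, 24.7, 29.9 and 27.3 CPM. The ranges did not overlap, and oligodendrocyte-like cells were 4.83-fold higher (4.42 to 5.27). Because astrocyte-like cells were many, they held 66.8% of all 3279 Tyro3 UMIs and mature oligodendrocyte-like cells 20.1%. After thinning, 23.7% of mature oligodendrocyte-like and 5.14% of astrocyte-like cells had a Tyro3 UMI (50.2% and 15.8% unthinned); the shares of 0.416% (microglia-like) and 0.387% (lymphocytes) were not distinguishable. The class includes cluster 33, with 36 cells that also carried 10 of 12 microglial markers and had 1 Tyro3 UMI.

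Gas6, the ligand of all TAM receptors, was highest in cluster 25 among pooled groups of at least 100 cells. It was also present in microglia-like cells, clusters 3 and 6 and border macrophage-like cells. Neutrophil-like cells had 11.1 CPM (3 UMIs, 2.29 to 32.4) and the 35 monocyte-like cells 15.7 CPM (2 UMIs), which could not be told from background. Cluster 25 held 124 cells with 7 of 7 endothelial markers, Pecam1 at 325 CPM among them, and kept a number because red cell genes scored close; Rgs5, a mural cell gene, was at 880 CPM there. Its Gas6 level was 360 CPM (320 to 403), with 486 CPM in library 3 and 357 CPM in library 5, the libraries with at least 20 of its cells. Without library 3 it was 313 CPM. Microglia-like cells had 156 CPM in library 3 and 319 CPM in library 5. In library 5 the level of cluster 25, from 56 cells, was thus close to theirs. Cluster 13, 894 cells without a class and with a median of 1951.5 UMIs, had 182 CPM (164 to 203). By library its level ran from 99.0 to 284 CPM. Microglia-like cells had 163 CPM, oligodendrocyte precursor-like cells 140 CPM (95 UMIs), cluster 3 had 101 CPM and astrocyte-like cells 51.6 CPM, against 6.87 CPM in T or NK cell-like cells.

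Gas6 was higher in microglia-like than in astrocyte-like cells in 6 of 6 libraries. From library 1 to 6 the microglia-like cells had 133, 99.7, 156, 274, 319 and 324 CPM and the astrocyte-like cells 33.5, 38.6, 35.0, 58.9, 58.4 and 50.3 CPM. The ranges did not overlap, and the ratio was 3.98, 2.58, 4.46, 4.65, 5.47 and 6.45 within libraries 1 to 6, against 3.15 (3.05 to 3.26) pooled. Pooled, cluster 5 had 297 CPM against 131 CPM in the other microglia-like cells. By library, cluster 5 had 112 and 65.5 CPM in libraries 1 and 2 and 282, 335 and 325 CPM in libraries 4, 5 and 6, and the other cells 134, 100.4, 156, 175, 196 and 292 CPM from library 1 to 6. Cluster 5 was thus below the other cells in libraries 1 and 2 and above them in libraries 4, 5 and 6. In cluster 3, with 93.3, 107 and 98.0 CPM in libraries 4, 5 and 6, Gas6 was 2.93-, 2.98- and 3.31-fold below microglia-like cells of the same library, and 1.61-fold below them pooled. Against microglia-like cells without cluster 5 the difference was 1.87- and 1.84-fold in libraries 4 and 5. In library 6 it was 2.98-fold, from 25 such cells. The summed border macrophage markers in microglia-like cells stood at 138, 137, 118, 341, 403 and 482 CPM from library 1 to 6; their part in the Gas6 values was not tested.

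Pros1, the gene of protein S, was concentrated in microglia-like cells. Its level there was 108 CPM (106 to 110), and microglia-like cells held 84.3% of its 14853 UMIs. From library 1 to 6 it was 101, 116, 105, 104, 119 and 105 CPM, the narrowest range relative to its level of the 5 genes in this class. Astrocyte-like cells had 17.4 CPM, with 14.98, 19.6, 19.1, 16.5, 17.4 and 17.2 CPM by library, and the groups did not overlap; the pooled ratio was 6.21 (5.87 to 6.57). In cluster 3 Pros1 was at 15.03 CPM, with 13.6, 16.5 and 14.3 CPM in libraries 4, 5 and 6, 7.18-fold below microglia-like cells (6.50 to 7.95). T or NK cell-like cells had 8.72 CPM. Within libraries 4, 5 and 6 the difference was 7.68-, 7.22- and 7.32-fold. Cluster 5 had 108 CPM and the other microglia-like cells 108 CPM. Of groups of at least 100 cells, cluster 13 came next in Pros1 after microglia-like cells, with 62.0 CPM (119 UMIs).

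**Figure D3:**
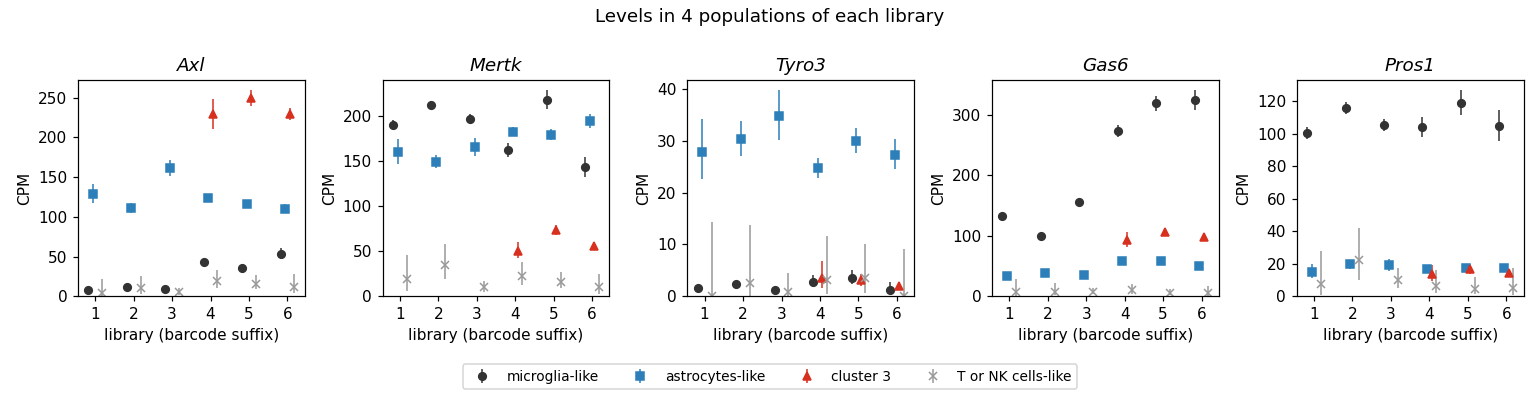
Level of each gene (vertical axis, CPM) in cells of 4 kinds (T or NK cell-like, cluster 3, astrocyte-like and microglia-like) in each library (horizontal axis), with 95% Poisson bars. Libraries carry no treatment label; Pros1 in microglia-like cells stays between 101 and 119 CPM while Axl and Gas6 vary.

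Transcripts of 2 members in the same cell were counted against the number that the product of their shares gives. In thinned microglia-like cells, 1721 of 20441 had UMIs of Mertk and Gas6, against 1659 from the product of the shares, and 1292 had Mertk and Pros1, against 1263. Axl and Mertk were together in 143 microglia-like cells, against 161. By cluster this had no common direction: the count was above the product in clusters 1, 7 and 17 and below it in clusters 0, 4, 5 and 15. Cluster 1 had 32 against 26.1, and cluster 5 had 66 against 74.1. In astrocyte-like cells 636 of 9508 had Axl and Mertk, against 605, and 123 had Mertk and Pros1, against 98.8. These too differed by cluster. For Axl and Mertk the count was above the product in clusters 2, 10, 11 and 12. It was below it in cluster 8 (142 against 151) and cluster 9 (15 against 15.03). For Mertk and Pros1 it was above in clusters 2, 8, 9, 10 and 12, with 44 against 29.6 in cluster 8. In cluster 11 it was below, with 9 against 11.5. In cluster 3, 251 of 3823 had Axl and Gas6, against 222. Cluster 6 had 171 against 167, and border macrophage-like cells 28 against 33.7. These counts are descriptions, since cells are not replicates.

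The other genes of the pathway were compared between microglia-like and astrocyte-like cells, and between cluster 3 and microglia-like cells, by the ratio of CPM with 10 CPM added to both. Many of these genes took part in the clustering, so the ratios describe the clusters. Of 9718 genes with at least 10 CPM in either class, 13.9% were at least 2-fold higher in microglia-like than in astrocyte-like cells and 23.5% at least 2-fold lower; for cluster 3 over microglia-like cells these were 5.18% and 5.76% of 8197. Among the members, Gas6 and Pros1 were higher and Axl and Tyro3 lower in the first comparison, and in the second Axl was higher and Mertk and Pros1 lower. Within libraries 1 to 6 the first comparison had 15%, 14.4%, 13.6%, 13.9%, 15.8% and 15% of all genes tested higher and 24.2%, 23%, 27.7%, 20.6%, 21.6% and 24.2% lower; the same 4 members were past 2-fold in each, but for Axl in library 6, with a log2 ratio of -0.92. Within libraries 4, 5 and 6, Gas6 was also past 2-fold lower in cluster 3. Against microglia-like cells without cluster 5 it was not past 2-fold in libraries 4 and 5. Against the whole class, 3.7%, 3.05% and 2.43% of all genes tested were at least 2-fold higher in cluster 3 within libraries 4, 5 and 6. The shares at least 2-fold lower were 5.28%, 5.27% and 4.81%.

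Other phosphatidylserine receptors and bridges stood apart between the classes. At least 2-fold higher in microglia-like cells were 7 of 14 measured genes (50%, against 13.9% of all genes). The 4 lower ones were 28.6%, against 23.5% of all genes. The median log2 ratio was 0.80, against -0.28 over all genes. C1qa and C1qb, chains of complement C1q, were at 6874 and 6440 CPM in microglia-like cells and 284 and 327 CPM in astrocyte-like cells. Trem2, a lipid receptor of microglia, was at 1513 and 57.5 CPM. Trem2 was also among the markers that named the microglia-like class, so its place in both comparisons was partly set by the naming. In cluster 3, 0 of 13 were higher than in microglia-like cells, against 5.18% of all genes. Lower were 5, or 38.5%, against 5.76% of all genes (list median -0.67). Lrp1, a scavenger and lipoprotein receptor, was at 37.2 CPM there against 244 CPM in microglia, Havcr2, the receptor Tim-3, at 43.6 against 241 CPM, and Trem2 at 462 against 1513 CPM. Within libraries 4, 5 and 6, 0 were higher, and 4 of 13, 5 of 14 and 5 of 12 were lower. Of all genes, 5.28%, 5.27% and 4.81% were lower there. Lrp1, Havcr2 and Trem2 were among the lower list genes in each library.

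Engulfment machinery had 8 of 18 genes higher in microglia-like than in astrocyte-like cells (44.4%, against 13.9% of all genes). The 4 lower ones, 22.2%, were near the all-gene share of 23.5% (list median 0.60). Wasf2, an activator of actin branching, was at 392 against 25.01 CPM, the small GTPase genes Rac2 at 145 against 11.03 CPM and Rhog at 286 against 35.9 CPM, and Cdc42 at 858 against 349 CPM. In cluster 3, 1 of 17 was higher than in microglia-like cells, 5.88% and near the 5.18% of all genes. Lower were 3, or 17.6%, against 5.76% of all genes (list median -0.03). Vav3, a guanine nucleotide exchange factor, was at 37.7 against 3.29 CPM, Wasf2 at 144 against 392 CPM and Trio, another exchange factor, at 14.5 against 41.8 CPM. Within libraries 4, 5 and 6, Wasf2 and Trio were at least 2-fold lower in each, and Vav3 was past 2-fold higher in library 5.

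Genes of receptor shedding and ligand activation had 2 of 5 higher and 0 lower in pooled microglia-like than in astrocyte-like cells. These were 40% and 0%, against 13.9% and 23.5% of all genes. Within library 4, 2 of 5 were higher and 1 lower, and within library 6, 1 of 5 was higher and 1 lower. In cluster 3, 0 of 5 were higher and 2 lower than in microglia-like cells (0% and 40%, against 5.18% and 5.76% of all genes). Within each of libraries 4, 5 and 6, 1 of 4 was lower, Adam10. Adam10, a protease that sheds surface receptors, was at 89.4 CPM in microglia-like, 34.7 CPM in astrocyte-like cells and 24.6 CPM in cluster 3. Vkorc1, which recycles the vitamin K used to carboxylate Gas6 and protein S, was at 199, 56.8 and 83.6 CPM in the same order, and Ggcx, the carboxylase, at 10.3, 25.1 and 5.70 CPM. Of phosphatidylserine exposure genes 1 was measured above 10 CPM, Tmem30a, a flippase subunit, at 156, 112 and 66.6 CPM, and Xkr8, a scramblase gene, was at 7.63, 6.89 and 5.02 CPM. Ano6, another scramblase gene, was at 5.64 CPM in microglia-like, 4.79 CPM in astrocyte-like and 7.87 CPM in cluster 3 cells, and the flippase gene Atp11a at 1.87 CPM in microglia-like and 9.72 CPM in astrocyte-like cells.

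Signalling adaptors had 6 of 15 higher in microglia-like than in astrocyte-like cells (40%, against 13.9% of all genes). The 3 lower ones, 20%, were near the all-gene share of 23.5% (list median 0.54). In cluster 3, 0 of 16 were past 2-fold in either direction, against 5.18% of all genes higher and 5.76% lower. Within libraries 4, 5 and 6 Pik3r1 was at least 2-fold lower in each, and Socs3 at least 2-fold higher in library 4. Socs3, an inhibitor of cytokine signalling, was at 107 CPM in microglia-like and 6.39 CPM in astrocyte-like cells, Pik3cd, a kinase subunit of leukocytes, at 62.8 and 3.67 CPM, and Akt2 at 15.1 and 130 CPM. In cluster 3, Ifnar1, a chain of the interferon receptor with which TAM receptors signal, reached 228 CPM against 113 CPM among microglia-like cells, just under the 2-fold limit. Tns2, a focal adhesion protein gene, had 179 CPM there against 99.4 CPM, and Pik3r1, a regulatory subunit of PI3 kinase, 46.8 against 94.1 CPM. Another list joined genes of liver X and other nuclear receptors, a group known to control Mertk, with liver X receptor targets. It had 2 of 8 higher and 4 lower in microglia-like than in astrocyte-like cells (median -0.71). These were 25% and 50%, against 13.9% and 23.5% of all genes. In cluster 3, 0 of 6 were past 2-fold. Mylip and Abcg1 were at 136 and 80.1 CPM in microglia-like and 9.46 and 3.75 CPM in astrocyte-like cells, and Srebf1, a regulator of lipid synthesis, at 41.8 and 289.9 CPM. In cluster 3, Mylip had 106 CPM, Srebf1 27.4 CPM and Abca1, a cholesterol exporter, 23.0 CPM against 15.5 CPM among microglia-like cells.

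Type I interferon genes had 3 of 9 higher in microglia-like than in astrocyte-like cells (33.3%, against 13.9% of all genes) and 0 lower (median 0.86). In cluster 3, 4 of 11 were higher than in microglia-like cells (36.4%, against 5.18% of all genes) and 0 lower (median 0.59). Bst2, an antiviral tether, was at 640 CPM in cluster 3, 135 CPM in microglia-like and 10.5 CPM in astrocyte-like cells. Irf7, a transcription factor of interferon production, had 77.8 CPM in cluster 3 against 13.05 CPM among microglia-like cells, and Mx1, an antiviral GTPase, 111 against 38.8 CPM. Within libraries 4, 5 and 6 this list had 2, 2 and 1 of 11 genes higher in place of 4, with medians of 0.20, 0.29 and 0.11. Bst2 stayed past 2-fold in each (439 against 93.7, 599 against 136 and 701 against 208 CPM). Irf7 was past it in library 5 alone of these 3, and Mx1 was at 96.9 against 105, 107 against 85.8 and 115 against 130 CPM, with no common direction. Ifit2, an interferon-induced antiviral gene, had 74.8 CPM in microglia-like and 8.17 CPM in astrocyte-like cells.

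**Figure D4:**
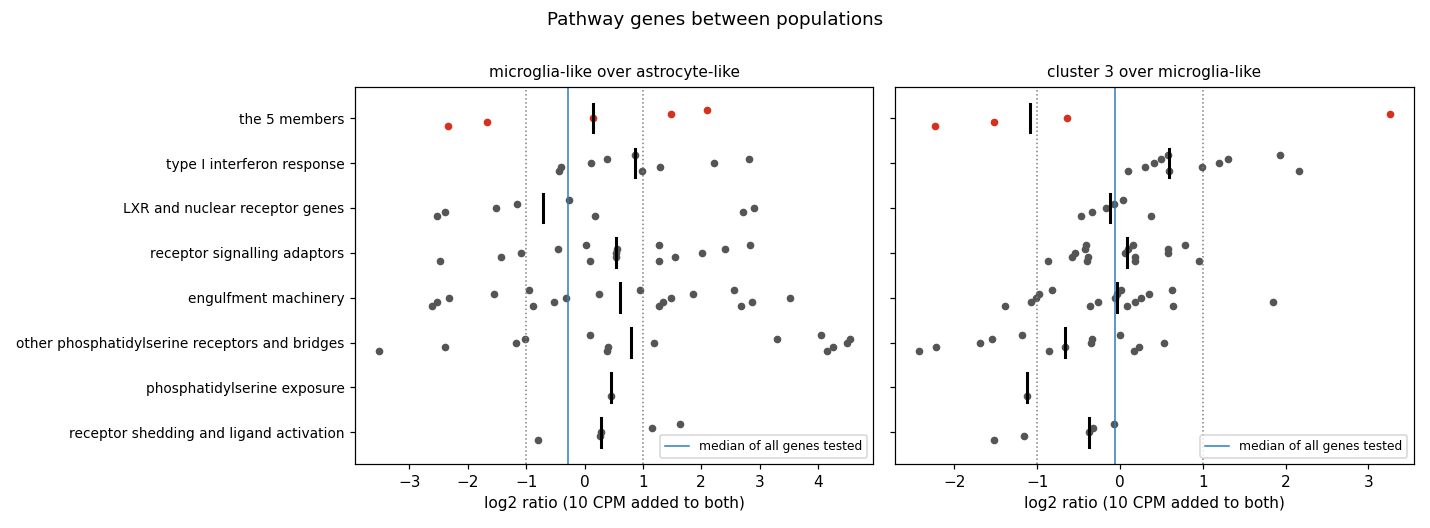
Log2 ratio of CPM, with 10 CPM added to both, of each pathway gene with at least 10 CPM in either population (points), by list. Black marks are list medians, the blue line is the median of all genes tested, and dotted lines are 2-fold; the members are in red. Cells are pooled over libraries, and the Axl ratio in cluster 3 is smaller within single libraries.

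Genes whose pattern over 18 classes and clusters of at least 50 cells was most like that of a member were ranked by Pearson's r of log2(CPM + 10) among 11757 genes; the points share libraries and depth, and with so many genes high values arise readily. For Axl these were Tmem51 (r = 0.94), Ptpn13 (0.90) and Tnfsf13 (0.86), for Mertk Lrp4 (0.93), Gpr146 (0.92) and Idh2 (0.88), and for Tyro3 Arhgap23 (0.95), Arhgef10 (0.94) and Dnajb2 (0.94). For Gas6 they were Hspb2 (0.88), As3mt (0.87) and Wtip (0.86), and for Pros1 Il1rl1 (0.89), Avpr1a (0.88) and Mmp2 (0.88). Lrp4 and Gpr146, like Mertk, were highest in cluster 29, the 62 cells with markers of both astrocytes and microglia.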

How the data were processed

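The deposited matrix holds whole-number UMI counts per gene and barcode, written by Cell Ranger 7.0.0 per the file headers; the labels name the genome build mm10, a mouse build, while the gene identifiers are rat. The sources used here do not state the annotation version or whether introns were counted. Barcodes with at least 500 UMIs, 200 genes and at most 20% mitochondrial UMIs were kept (48704), and 3904 (8.02%) with the highest doublet scores were removed. Log-scaled counts of 2000 variable genes, the 5 members left out, gave 30 principal components, 15 neighbours and Leiden clusters at resolution 1.0 (35 clusters), with no alignment of libraries.

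The ranking and scaling of the variable genes had not been set in advance. In all, 4 clusterings were looked at: genes ranked by dispersion, scaled (first run with an incomplete set of mitochondrial genes) or unscaled, and by variance within 50 bins of the mean, unscaled or scaled and clipped. The last was kept after its clusters and markers had been seen, because it parted MHC class II-high macrophages, B cells and endothelial cells and came close to the clusters of an earlier analysis of these data; the members' levels by cluster had not been computed for the others when it was kept, and all 3 are now given as alternatives. A cluster took a class name where the markers' mean log2 ratio to the median over clusters, with 10 CPM added, was at least 1. It also had to be at least 1 above the next class. At least 3 markers had to have a log2 ratio of 1 or more and be found in at least 10% of the cluster's cells. Withholding the border macrophage name from clusters 3 and 6, with its 1% limit, was decided after these clusters had been seen and makes cluster 3 the largest unnamed myeloid cluster, which is the one compared; keeping cycling clusters by number and matching clusters between settings by overlap were also decided then. The members and lists were chosen with earlier results of these data known.

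Named genes are the 5 members, the 3 genes most like each, the 3 of each list with the largest ratio in each comparison, and the 2 highest in microglia-like cells for the engulfment and phosphatidylserine lists. With 0 libraries tied to a sample, the matrix is 1 sample and no test was run. Intervals cover counting error only, at 95%. Of the motifs searched, 3 were planned and 8 added. Tools were leidenalg 0.10.2, python-igraph 0.11.9, scikit-learn 1.9.0, pandas 2.3.3, SciPy 1.17.1, NumPy 2.4.6 and matplotlib 3.10.9 under Python 3.11.15; the ratio calls were tested on simulated data.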

Additional observations from a re-analysis of the deposited data

Results flagged for a closer look

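The 9227 barcodes over the mitochondrial limit, which entered no class, held signal of all 5 genes above the limit that a count of 0 allows. Their levels were 99.4 CPM for Axl, 141 CPM for Mertk, 22.8 CPM for Tyro3, 53.6 CPM for Gas6 and 19.2 CPM for Pros1. That limit, 0.0865 CPM, is low at this depth; T or NK cell-like cells had 11.1, 16.6, 1.85, 6.87 and 8.72 CPM of the same genes. No control barcodes were available for comparison.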

How the results depend on the processing

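No paired analysis was possible because 0 libraries could be tied to a labelled sample. Levels in each gene's highest group moved outside the counting interval in 22 of 79 alternatives and by over 1.5 times in 0; log2 ratios moved in 66 of 165, by over 1.5 times in 8, and 1 changed sign. The values within single libraries, which stand beside pooled ratios of the members, the 3 set-aside clusterings, leaving out cluster 5 and the added motifs were chosen after seeing the data. The cause of these shifts was not tested. Naming by highest marker score gives no value for numbered clusters, no cluster matched cluster 6 at a mitochondrial limit of 10%, and protein identity and the kinase signature were not run. UMI depth sets only the width of the counting intervals, which leave out the spread between libraries. For Mertk in microglia-like cells the pooled interval was 193 to 198 CPM, and single libraries ran from 143 to 218 CPM.

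With doublets kept, Axl in cluster 6 was 232 CPM, Mertk in microglia-like cells 203.5 CPM and Tyro3 in mature oligodendrocyte-like cells 117 CPM. With members among the variable genes, Axl was 239 CPM and Mertk 199.8 CPM; at resolution 0.5 Axl was 242 CPM. With highest marker scores, Mertk was 203 CPM, Tyro3 106 CPM and Pros1 110.1 CPM. Outside mitochondrial and ribosomal genes, Axl, Mertk, Tyro3, Gas6 (cluster 25) and Pros1 were 315, 225, 162, 425 and 124 CPM. Axl was 231 CPM with dispersion-ranked unscaled genes, Gas6 315 CPM with binned variance unscaled, and Mertk 199.9 CPM without cluster 5.

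For log2 microglia-like to astrocyte-like ratios, Axl (-2.94 as reported) was -3.52 at a mitochondrial limit of 10%, -3.63 with doublets, -3.70 with members among variable genes, -3.61 by marker score, -3.41 with dispersion scaled, -3.03 with binned variance unscaled and -3.69 without cluster 5. Mertk (0.14) was -0.0067 at the 10% limit, 0.18 with members among variable genes, by marker score and without cluster 5. Tyro3 was -4.10 without cluster 5. Gas6 (1.66) was 1.24 at the 10% limit, 1.21 with doublets, 1.34 with members among variable genes, 1.57 by marker score, 1.38 with dispersion scaled and 1.34 without cluster 5. Pros1 (2.63) was 2.37 with doublets.

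For log2 cluster 3 to microglia-like ratios, Axl (3.91) was 4.51 at the 10% limit, 4.64 with doublets and with members among variable genes, 4.29 with dispersion scaled, 4.09 outside mitochondrial and ribosomal genes and 4.66 without cluster 5. Mertk (-1.67) was -1.80 with doublets, -1.75 with members among variable genes, -1.58 with dispersion scaled and -1.49 outside those genes. Gas6 (-0.69) was -0.54 at the 10% limit, -0.42 with doublets, -0.40 with members among variable genes, -0.78 at resolution 0.5, -0.53, -0.80 and -0.91 in the set-aside clusterings in the order given, -0.51 outside those genes and -0.38 without cluster 5. Pros1 (-2.84) was -3.001, -3.05 and -3.15 in the set-aside clusterings and -2.66 outside those genes.

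Leaving out each library gave ranges of 246 to 257 CPM for Axl, 189.0 to 199 for Mertk, 133 to 139 for Tyro3, 313 to 389 for Gas6 and 105 to 110.4 for Pros1. Log2 microglia-like to astrocyte-like ratios were -3.20 to -2.68 (Axl), 0.061 to 0.19 (Mertk), -4.04 to -3.67 (Tyro3), 1.59 to 1.80 (Gas6) and 2.61 to 2.66 (Pros1). In the same order, log2 cluster 3 to microglia-like ratios were 3.68 to 4.19, -1.83 to -1.52, 0.22 to 0.71, -0.89 to -0.58 and -2.91 to -2.77. Thinned to 1000 UMIs, the highest shares were 22.1% for Axl, 18.6% for Mertk, 11.5% for Tyro3 and 10.1% for Pros1. Genes at least 2-fold lower in cluster 3 than in microglia-like cells numbered 472, and 749 with 1 CPM added. With 1 CPM added, shedding genes lower in microglia-like than in astrocyte-like cells went from 0 to 1, interferon genes higher there from 3 to 5, and adaptor genes higher in cluster 3 from 0 to 1. The border macrophage-like group of 625 cells is itself tied to the clustering kept: with dispersion-ranked, scaled genes that name fell to 48 cells.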

Other observations

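Values in cells outside the comparisons add to the picture. The 78 cells of cluster 27, with 10 of 10 fibroblast and 8 of 11 mural markers, had Axl at 157 CPM (42 UMIs) and Pros1 at 48.5 CPM (13 UMIs). Cycling cluster 21, with 233 cells and 10 of 12 microglial markers, had Axl at 4.40, 34.8, 102 and 110 CPM and Mertk at 141, 64.2, 65.8 and 71.3 CPM in libraries 2, 4, 5 and 6. The 24 border macrophage-like cells of library 3 had Gas6 at 271 CPM and Axl at 80.4 CPM, against 59.7 to 89.5 CPM and 216 to 243 CPM in libraries 4, 5 and 6. Over all kept cells, Pros1 was at 86.5, 87.6, 85.3, 35.7, 33.0 and 26.2 CPM and Axl at 19.9, 35.3, 32.1, 124, 138 and 158 CPM from library 1 to 6, values that fall into separate sets for both genes; the libraries also differed in their shares of cell classes, and no treatment can be read from them.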
